A study of Danio rerio with 8 samples.

Results

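The genes described here build, cut, cap, branch and steer actin filaments. They were taken as actb1, actb2, the fascin genes fscn1a and fscn1b, and every zebrafish gene whose symbol begins with the stem of the Arp2/3 subunits (arpc, actr2, actr3), cofilins (cfl), profilins (pfn), beta-thymosins (tmsb), WAVE and N-WASP proteins (wasf, wasl), diaphanous formins (diaph), tropomyosins (tpm), capping protein (capza, capzb), Ena/VASP proteins (enah, evl) or the GTPase genes (cdc42, rac1, rac2, rac3, rhoa). The rule took names only and no measured value. It found 59 genes, read by 156 probes, among the 13142 genes that could be given a symbol on the array. A further 15 genes that fit the rule had no probe matched to them and were not analysed here.

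RNA came from whole right retinae of wild type adult zebrafish, with 4 crush pools and 4 control pools. In the crush group the right optic nerve had been crushed 3 days earlier, an injury that interrupts the axons running to the brain. The control group was intact, unoperated fish, so that no group carries the surgery without the crush. Retinae of 4 fish, whose sex was not distinguished, went into every pool, and each pool was hybridised to a 1-colour Agilent array.

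Actin exists as single globular subunits and as filaments that grow mainly at the barbed end. Beta-thymosins hold subunits in reserve, profilins deliver them to growing ends, and cofilins sever old filaments and return subunits to the pool. The Arp2/3 complex starts a new branch on the side of an existing filament when N-WASP or WAVE proteins switch it on, and these in turn answer to the small GTPases Cdc42 and Rac. In the growth cone of a regrowing axon, branched networks fill the sheet-like lamellipodium and bundles of parallel filaments fill the finger-like filopodia. Zebrafish retinal ganglion cells, in contrast to those of mammals, regrow their axons to the brain after a crush.

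Values are log2 fluorescence signals after background correction and quantile normalisation, and a gene is read from its brightest probe. A difference is the mean of the crush pools minus the mean of the control pools, and a gene passed when it changed at least 1.5-fold (0.585 on the log2 scale) with an adjusted p of at most 0.05 in limma's moderated test. Correlations between arrays lay between 0.979 and 0.991 within a group and between 0.973 and 0.986 across the groups. Over the whole array 826 of 43601 probes rose and 377 fell, a split of 68.7% upwards that became 49.4% when each array was scaled to its median and 44.7% with the scanner's processed signal. All crush arrays lay on 1 slide and all control arrays on another, so that slide and group cannot be told apart. Markers of retinal ganglion cells were mostly lower after crush: 7 of the 10 measured fell, with a median difference of −1.03, whereas the neurofilament gene nefma rose by 2.05. The list held 12 such markers. One that was not measured here, thy1, is among the top upregulated genes of the study. No Müller glia, amacrine and bipolar cell or myeloid marker passed. In whole retinae, fewer cells of a type and less RNA per cell cannot be told apart. The p-values describe the spread between pools.

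Of the 59 actin genes, 4 rose after crush and 0 fell. Those that rose were tmsb, cfl1l, actr3 and arpc5a. They make up 6.78% of the members, beside 2.47% of all genes with a symbol that rose and 0.883% that fell by the same rule. At an unadjusted p under 0.05, 18 members were higher and 3 lower (12.9% of all genes were higher and 9.06% lower at that p). The mean signal was higher in crush than in control pools for 43 members (72.9%, against 51.4% of all genes), and in 16 members every crush pool lay above every control pool (27.1%, against 10.3% of all genes). Conversely, 2 members lay below without overlap, where 6.53% of all genes did. The median difference was 0.18 over the members and 0.01 over all genes with a symbol. Differences ran from −0.49 in cdc42se2, which encodes a small Cdc42-binding protein and did not pass (adjusted p = 0.263), to 3.51 in tmsb. The plot of differences shows 56 of them by role.

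**Figure D1:**
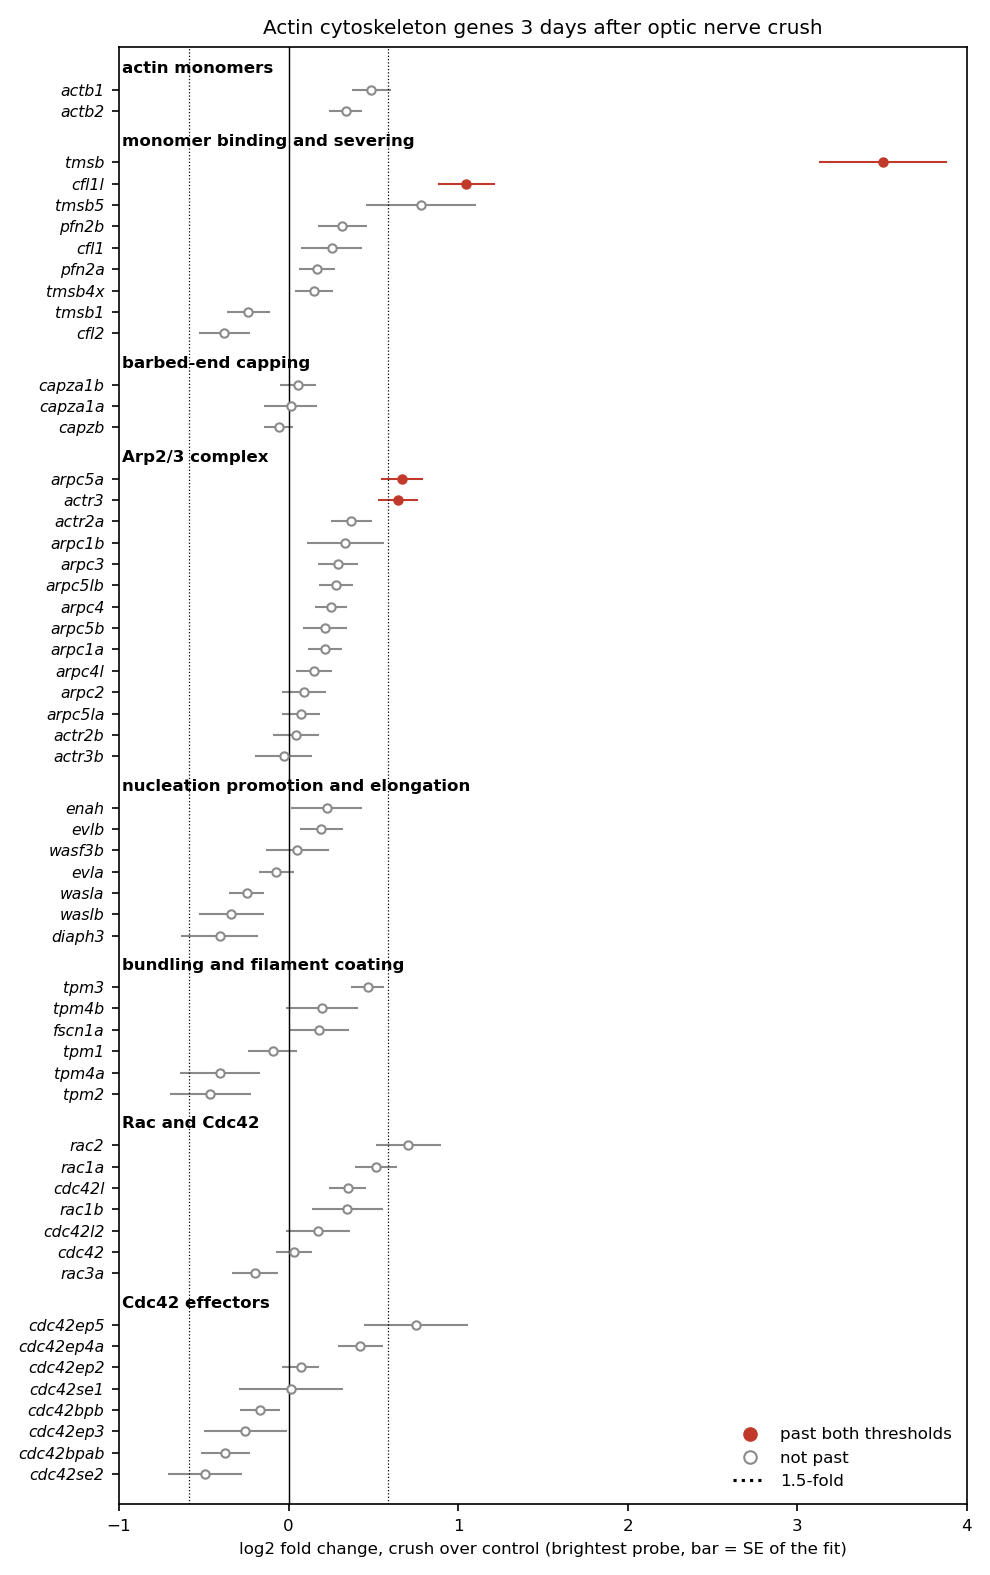
Difference in log2 signal between crush and control pools (x axis) for 56 of the 59 genes, grouped by role, with the standard error of the fit as bars and dotted lines at 1.5-fold. The 4 filled points, tmsb, cfl1l, arpc5a and actr3, passed both thresholds, and the Arp2/3 genes lie mostly to the right of 0.

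The shift of the whole list was not carried by a single pool. The median over the 59 members, each set against its own control mean, was 0.18, 0.12, 0.19 and 0.23 in crush pools 1 to 4, against −0.03, 0.00, −0.06 and 0.09 in control pools 1 to 4. The crush pools all lay above the control pools in this measure, with control pool 4 closest to them. Crush pool 4 held the highest crush value of 22 members, and crush pool 2 that of 7. By role, medians were above 0 for actin itself (0.41), for the monomer-binding and severing proteins (0.26) and for the Arp2/3 complex (0.23). They were near 0 for capping (0.01), bundling and coating proteins (0.04), nucleation promotion and elongation (−0.07) and Cdc42 effectors (−0.08). The first 3 medians kept their sign in all 16 alternative settings, and the last 4 did not.

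**Figure D2:**
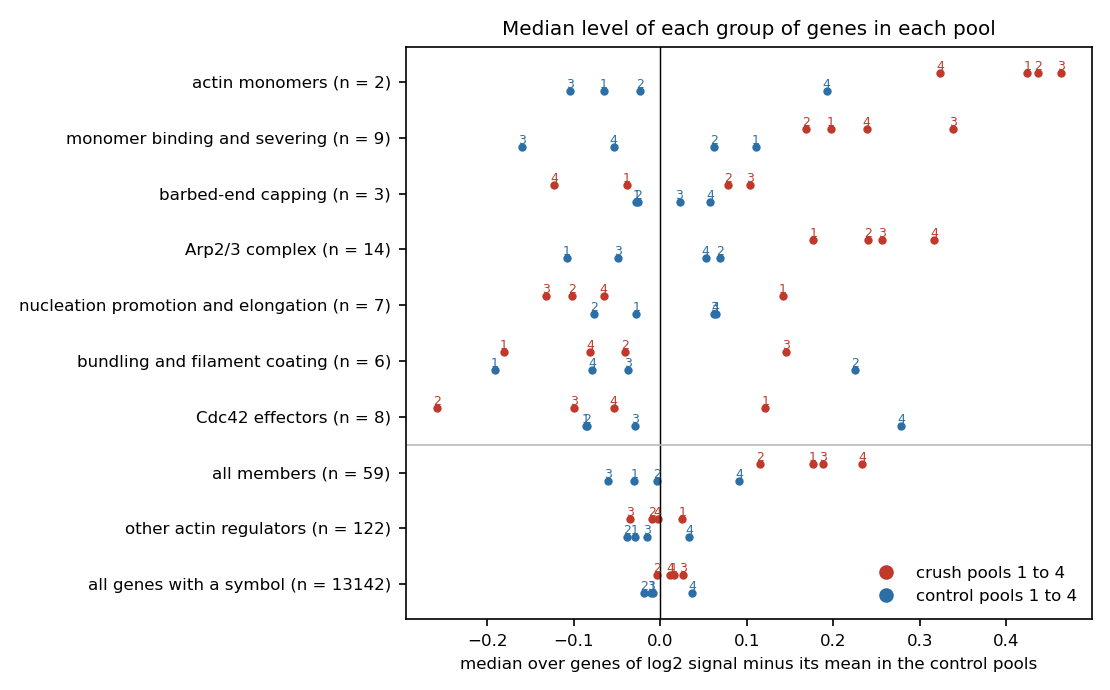
Median over the genes of a group (x axis, log2 signal minus the mean of the control pools) in each crush pool (red, upper row of each group) and control pool (blue, lower row), with the pool number at each point. Red and blue points separate for actin monomers, monomer binding and severing, Arp2/3 complex and all members, and mix in the other groups.

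Cytoplasmic beta-actin, the building block of the filaments, is encoded by actb1 and actb2. The brightest actb1 probe read 16.55, 16.62, 16.58 and 16.38 in crush pools 1 to 4, against 15.94, 16.07, 15.91 and 16.26 in control pools 1 to 4. The groups did not overlap, and the difference of 0.49 ± 0.11 (SE, n = 4 pools each, 1.40-fold) missed both thresholds (adjusted p = 0.0585). The array carries 7 probes for actb1, all without overlap and 0.46 to 0.67 higher after crush, and 3 of them passed. Of all probes on the array 1.89% rose, 0.865% fell, 7.51% were higher without overlap and 47.9% were higher at all. Those 3 calls depended on single pools: 5 of the 7 probes passed without control pool 4 and 0 passed without crush pool 2, crush pool 3 or control pools 1, 2 or 3, with 1 left without crush pool 1 or crush pool 4. The brightest actb1 probe itself passed when arrays were scaled to their medians (0.67, adjusted p = 0.0124) and with the scanner's processed signal (0.59, adjusted p = 0.0179).

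The other gene, actb2, was the brightest of all members. It read 17.91, 17.87, 17.97 and 17.88 in crush pools 1 to 4, against 17.55, 17.50, 17.50 and 17.75 in control pools 1 to 4. The crush pools lay within 0.10 of each other and above all control pools, with a difference of 0.34 ± 0.10 that did not pass (adjusted p = 0.109). All of its 9 probes were higher after crush, by 0.13 to 0.75, but only the brightest was without overlap and none passed. The within-array difference between actb1 and actb2 was −1.38 ± 0.10 in crush pools and −1.53 ± 0.09 in control pools (SD, n = 4 each), and the 2 groups of values overlapped (exact permutation p = 0.0857, two-sided). With arrays scaled to their medians the actb1 and actb2 values did not overlap (exact permutation p = 0.0286, unadjusted), with 0.33 between the groups in place of 0.15. The coding sequences of these genes are near-identical, and whether each probe separates them was not tested.

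Among the proteins that bind or release actin subunits, tmsb rose most of all 59 members. It encodes a beta-thymosin, a short peptide that keeps subunits from joining filaments. Its signal was 12.74, 13.09, 13.24 and 12.88 in crush pools 1 to 4, against 10.18, 8.48, 9.05 and 10.21 in control pools 1 to 4. The crush pools agreed to within 0.50, while the control pools spread over 1.73. The difference was 3.51 ± 0.38 (SE), or 11.4-fold (adjusted p = 0.00277), and the second probe gave 3.53. A further probe, known by an Ensembl transcript that the study lists under this name, was kept out of the member count. It was dimmer (6.20 ± 0.23 in crush pools, 4.19 ± 0.41 in control pools) and rose by 2.02 (adjusted p = 0.00255). In control pools 3 and 4 it read 3.69 and 4.16, below every probe well above background there. The size of its rise is thus limited by signal. The fold that the study lists for this transcript is close to the 11.4-fold of the brightest tmsb probe, and larger than that of this dimmer probe. The call of tmsb stood with any 1 pool left out.

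The other beta-thymosins did not show such a difference. The brightest gene of this role, tmsb4x, read 16.43, 16.44, 16.31 and 16.51 in crush pools 1 to 4, against 16.38, 16.17, 16.09 and 16.44 in control pools 1 to 4. The groups overlapped and the difference was 0.15 ± 0.11 (adjusted p = 0.508). For tmsb1 it was −0.24 ± 0.13 (adjusted p = 0.339). The non-coding transcript tmsb5 was 0.78 ± 0.32 higher, with a spread among pools that left it uncalled (adjusted p = 0.230). These 2 and the cofilins and GTPases named below without a call were chosen with their values in view.

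Cofilin has 3 measured genes, of which 1 passed. The gene cfl1l, a relative of the main non-muscle cofilin cfl1, read 8.38, 8.03, 8.13 and 8.26 in crush pools 1 to 4, against 7.57, 7.00, 6.83 and 7.20 in control pools 1 to 4. Every crush pool was above every control pool, and the rise of 1.05 ± 0.17 (2.07-fold) passed (adjusted p = 0.0159), as did that of its other probe (1.17). Without crush pool 3 the adjusted p of cfl1l was 0.0533, and with any other pool left out it passed. The brighter cfl1 averaged 13.89 ± 0.12 in crush pools and 13.64 ± 0.36 in control pools (SD, n = 4 each), a difference of 0.26 that did not pass (adjusted p = 0.475). For cfl2, the muscle-type cofilin of mammals, the means were 12.60 ± 0.23 in crush pools and 12.98 ± 0.18 in control pools (adjusted p = 0.209). On each array cfl1 lay 5.70 ± 0.11 above cfl1l in crush pools and 6.49 ± 0.45 above it in control pools, without overlap. That is the smallest p the design allows (exact permutation p = 0.0286, two-sided). After adjustment over the 16 pairs of related genes compared it was 0.2286. A pair alone at the smallest p could not pass that adjustment. With arrays scaled to their medians the cfl1 and cfl1l values overlapped (exact permutation p = 0.0571). Keratin gene krt4, a skin and cornea marker, was also higher in every crush pool (difference 1.14, adjusted p = 0.0924). No other of the 7 skin and cornea markers measured was without overlap. Of the 7, 5 were higher after crush, cldne (−0.20) and krt8 (−0.03) were lower, and 0 passed. The summed signals of these markers overlapped between the groups. Their part in the cfl1l result was not tested.

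Profilins feed subunits to growing ends. Both measured genes, pfn2a and pfn2b, had 6 probes each, and all 12 were higher after crush. The differences were 0.17 to 0.32 for pfn2a and 0.17 to 0.43 for pfn2b, and none passed. Groups did not overlap at 3 probes of pfn2a and 5 of pfn2b, but they did at the brightest probe of each. Of all probes on the array, 47.9% were higher after crush and 7.51% were higher without overlap.

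**Figure D3:**
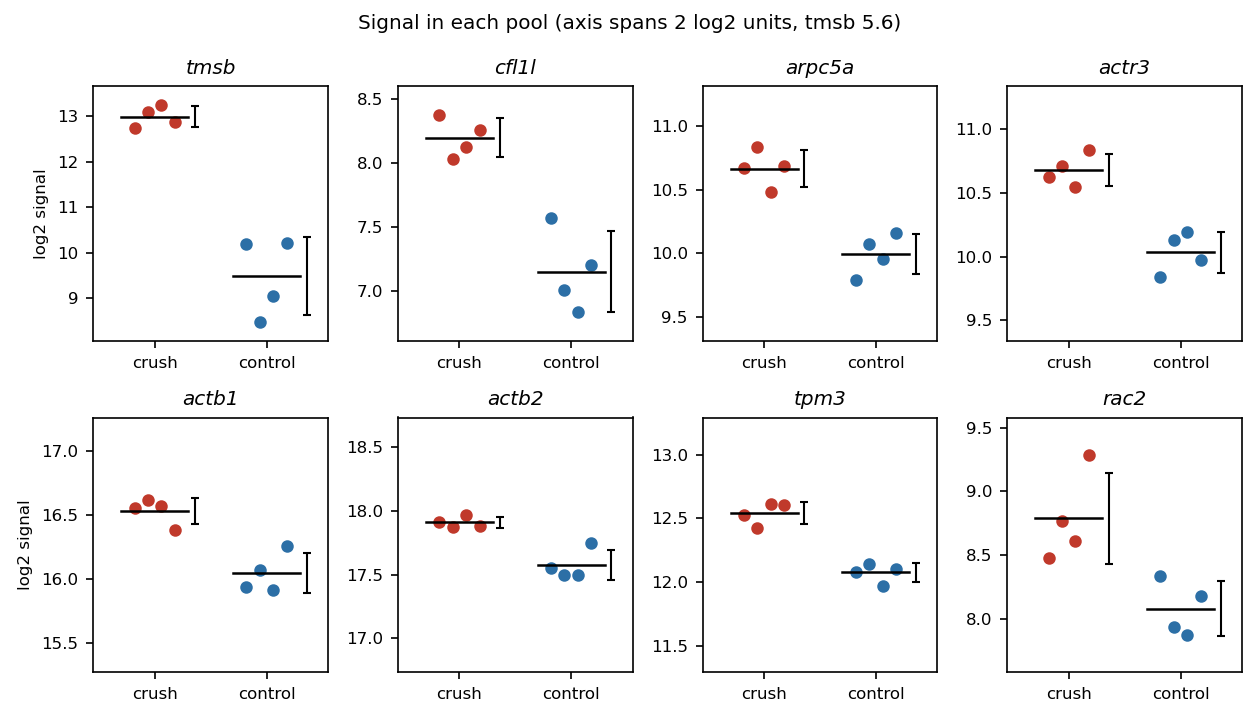
Log2 signal in each crush pool (red, left) and control pool (blue, right) for 8 genes, with the mean as a line and the SD as a bar beside it. Each panel spans 2 log2 units except tmsb. All 8 are among the 16 members in which every crush pool lay above every control pool (27.1%, against 10.3% of all genes). The lack of overlap thus follows from the genes shown. The widest gap is that of tmsb.

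Capping protein closes the barbed end and stops growth there. Its 3 measured genes had the smallest differences of any role. The brightest, capza1b, read 12.71, 12.87, 12.89 and 12.92 in crush pools 1 to 4, against 12.60, 12.90, 12.81 and 12.85 in control pools 1 to 4. The groups overlapped and the difference was 0.06 ± 0.11 (adjusted p = 0.811). For capza1a and capzb the differences were 0.01 and −0.06. The 3 probes of capza1a differed in sign (−0.07 to 0.23).

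The Arp2/3 complex, which nucleates branches, was the largest role group, and 13 of its 14 measured genes were higher after crush, 6 of them without overlap. Of all genes with a symbol, 51.4% were higher and 10.3% were higher without overlap. The complex is built around the actin-related proteins Arp2 and Arp3, with the arpc genes coding for the other subunits. For actr3, which encodes Arp3, the signal was 10.63, 10.71, 10.54 and 10.84 in crush pools 1 to 4, against 9.84, 10.13, 10.19 and 9.97 in control pools 1 to 4. It rose by 0.65 ± 0.12 (1.56-fold, adjusted p = 0.0269), while its dimmer second probe gave 0.46 and did not pass (adjusted p = 0.216). The call of actr3 held only without control pool 4 (adjusted p = 0.047) and was lost without any other single pool, with adjusted p between 0.0543 and 0.0901.

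The small subunit gene arpc5a read 10.67, 10.83, 10.48 and 10.68 in crush pools 1 to 4, against 9.79, 10.07, 9.96 and 10.16 in control pools 1 to 4. The groups lay apart, and arpc5a rose by 0.67 ± 0.12 (1.59-fold, adjusted p = 0.0262). It has 8 probes, of which 7 were higher after crush (47.9% of all probes), 6 without overlap (7.51%) and 3 past both thresholds (1.89%). The exception stood at −0.16 and the largest at 1.00, so that the probes of this gene did not all move alike. The exception was well above background on all arrays (9.54 ± 0.17 in crush pools, 9.70 ± 0.21 in control pools). It was brighter than the probe with the largest difference (9.50 ± 0.16 in crush pools, 8.50 ± 0.11 in control pools). Without crush pool 3 or without control pool 4 arpc5a still passed (adjusted p = 0.0492 and 0.0287), and without any other pool it did not (0.0563 to 0.0867).

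The remaining subunits differed less. The brightest, arpc2, a core subunit that contacts the mother filament, read 14.30, 14.16, 13.92 and 14.34 in crush pools 1 to 4, against 13.96, 14.12, 13.99 and 14.29 in control pools 1 to 4. The groups overlapped, with a difference of 0.09 ± 0.13 (adjusted p = 0.753). Between these lay actr2a, which encodes Arp2 (0.37, adjusted p = 0.147), arpc3 (0.29), arpc5lb (0.28), arpc4 (0.25), arpc5b (0.22) and arpc1a (0.21), none of which passed. All but arpc3 and arpc5b of these 6 were without overlap. The differences of arpc4l (0.15), arpc5la (0.07) and actr2b (0.05) were smaller and overlapped. The gene arpc1b was 0.34 ± 0.23 higher and overlapped, since control pool 1 held its highest value of all pools (11.84). The actin-binding protein coro1a, a myeloid marker, was highest among control pools in control pool 1 (11.28), but crush pool 4 held its highest value (11.68). Of the 11 myeloid markers measured, 4 had their highest value of all pools in control pool 1 and 7 in crush pool 4. Control pool 1 also held the highest value of 6 of the 7 lens markers measured, and control pool 2 that of 1. The lens markers had a median difference of −1.41, with 0 higher after crush, and 0 passed. The part of the myeloid and lens markers in the arpc1b values was not tested. Of the Arp2/3 genes only actr3b, a dim second Arp3 gene, had a difference below 0 (−0.03, adjusted p = 0.946), and its sign turned in 3 sets of 7 arrays.

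The 2 Arp3 genes were the other related pair whose within-array difference did not overlap between the groups. It was 4.72 ± 0.29 in crush pools and 4.04 ± 0.33 in control pools (SD, n = 4 each), with an exact permutation p of 0.0286 that did not pass adjustment over 16 pairs (0.2286). For arpc5a minus arpc5b the values were 0.45 ± 0.26 in crush pools and 0.00 ± 0.24 in control pools, and 1 crush pool fell inside the control range (exact permutation p = 0.0571). No pair passed adjustment, but a few pairs at the smallest p of the design could not have passed it.

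**Figure D4:**
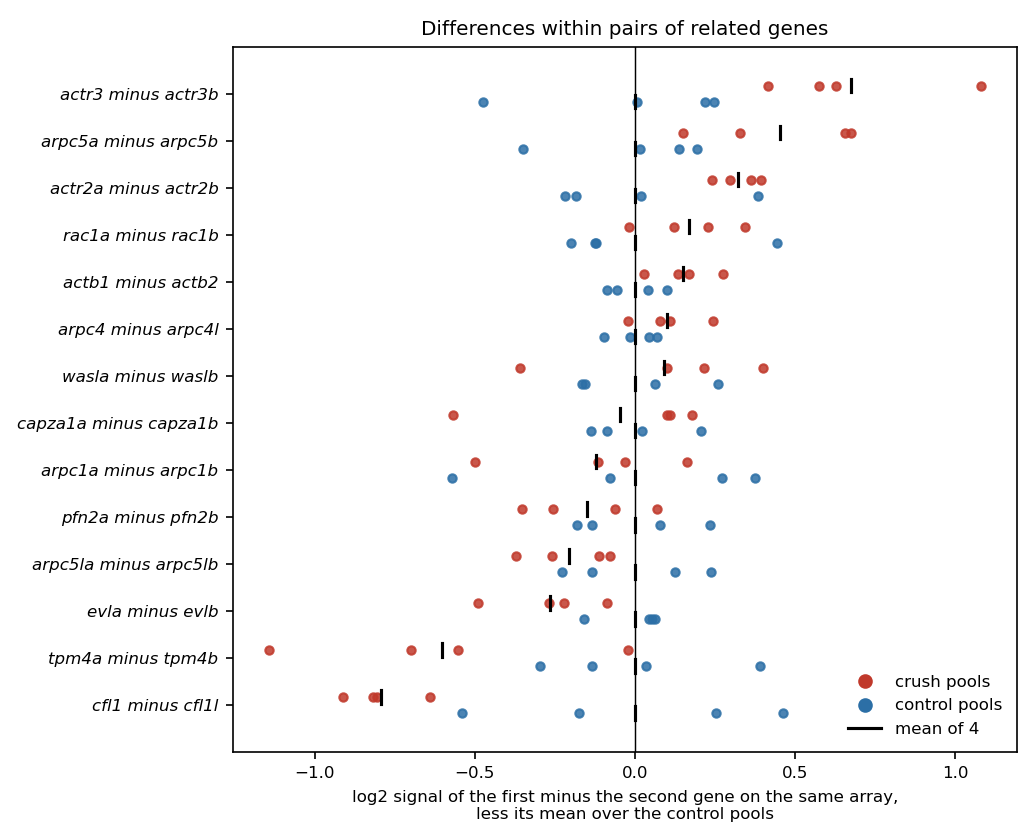
Within-array difference in log2 signal between related genes (x axis, set to 0 at the mean of the control pools) for 14 of the 16 pairs, with crush pools in red above control pools in blue and the mean of each as a black bar. The points separate for actr3 minus actr3b on the right and cfl1 minus cfl1l on the left, and overlap in the other 12 pairs shown.

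Other proteins switch Arp2/3 on or extend filaments. Of 7 measured genes 3 were higher and 4 were lower, where 51.4% of all genes were higher. None passed, where 2.47% of all genes rose and 0.883% fell. The brightest was waslb, 1 of 2 genes for N-WASP, which couples Cdc42 to Arp2/3. It read 13.90, 13.28, 13.19 and 13.18 in crush pools 1 to 4, against 13.86, 13.40, 13.73 and 13.92 in control pools 1 to 4. Crush pool 1 stood with the control pools and the other crush pools below them, and the difference was −0.34 ± 0.19 (adjusted p = 0.372). Its partner wasla was below all control pools in every crush pool, by 0.25 on average (11.28 ± 0.14 in crush pools, 11.52 ± 0.06 in control pools), without passing (adjusted p = 0.235). The WAVE gene wasf3b stood at 0.05 and the formin diaph3 at −0.41. The Ena/VASP genes, which keep barbed ends growing in filopodia, were at 0.23 for enah, 0.19 for evlb and −0.07 for evla. Probes differed in sign for enah (−0.14 to 0.23), evla (−0.07 to 0.19) and wasf3b (−0.04 to 0.05).

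Tropomyosins wind along filaments and decide which other proteins can bind them, and fascin ties filaments into filopodial bundles. The brightest gene of this role, tpm3, read 12.53, 12.42, 12.61 and 12.60 in crush pools 1 to 4, against 12.08, 12.14, 11.97 and 12.11 in control pools 1 to 4. The difference of 0.47 ± 0.10 passed the p threshold (adjusted p = 0.0395) but not the fold threshold. With it, 5 members were higher at an adjusted p of at most 0.05 whatever their fold, as were 2.95% of all genes. The 7 probes of tpm3 belong to 2 transcripts. All 5 probes of the first were 0.47 to 0.86 higher without overlap (7.51% of all probes), and 3 passed (1.89%). The 2 probes of the second overlapped. The brighter of these 2 stood at 0.51, and the other was well above background on 0 crush and 1 control arrays. No set of 7 arrays left the brightest probe past both thresholds. For fscn1a the difference was 0.18 ± 0.17 (adjusted p = 0.609).

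None of the other tropomyosins passed, and tpm1 stood at −0.09. For tpm2 the means were 9.35 ± 0.16 in crush pools and 9.81 ± 0.52 in control pools, where control pool 3 read 10.48 (adjusted p = 0.331). The skeletal muscle gene mylpfa read 4.89 to 5.50 in crush pools, against 8.53 in control pool 3 and 5.40 to 5.77 in the other control pools. In control pool 3 atp2a1, the calcium pump of muscle, was also at its highest (8.61). Control pool 3 held the highest value of 7 of the 21 skeletal muscle markers measured and the lowest of 2. One of these 2, tnnt3a (2.78), was too dim to stand above background. Control pool 2 held the highest value of 5 markers and the lowest of 5. The skeletal actin genes acta1a (difference 0.46) and acta1b (0.30) were higher in every crush pool, and acta1a was not at its highest in control pool 3 (13.85). Of the 21 markers, 7 were higher after crush, with a median difference of −0.28, and their summed signals overlapped between the groups. For tpm4a the means were 9.34 ± 0.09 in crush pools and 9.74 ± 0.52 in control pools, where control pool 2 read 10.52 (difference −0.40, adjusted p = 0.384). The 4 probes of tpm4a differed in sign (−0.40 to 0.08). Without control pool 2 the difference at its brightest probe was −0.15. In that pool the smooth muscle and pericyte genes myh11a (9.93) and rgs5a (12.78) were also at their highest. Control pool 2 held the highest value of 6 of the 10 markers of these cells and the lowest of 2, desma (6.91) and pdgfrb (7.16). It also held the highest value of 4 of the 6 red blood cell markers measured, and the lowest of 1. None of the 21 skeletal muscle, 10 smooth muscle and pericyte or 6 red blood cell markers measured passed. The part of such cells in these tropomyosin values was not tested.

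**Figure D5:**
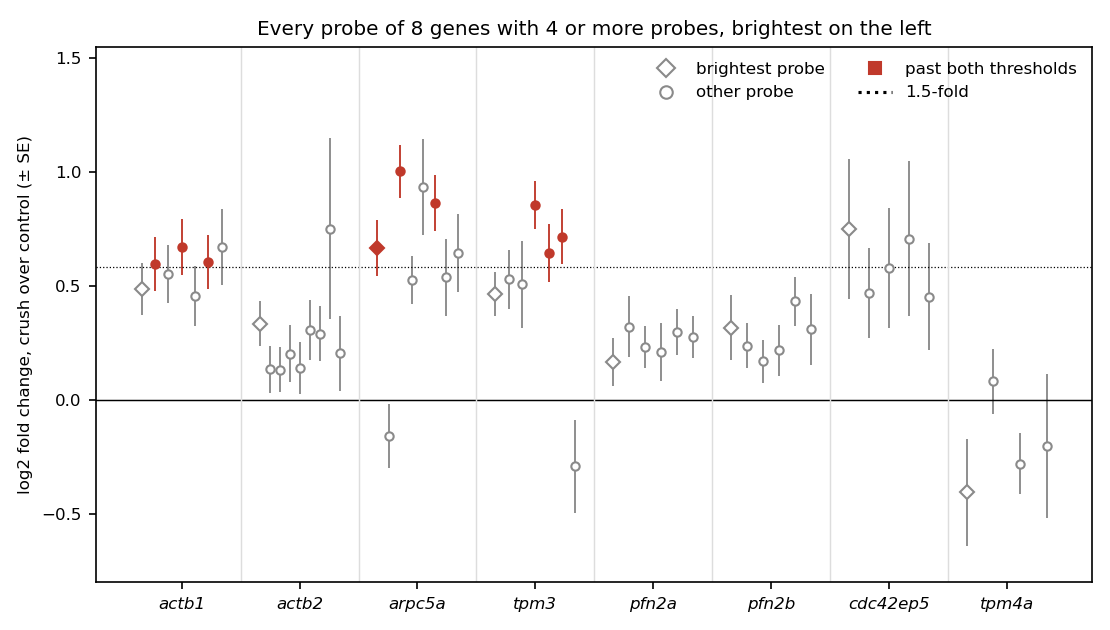
Difference in log2 signal between crush and control pools (y axis, with the standard error of the fit) for every probe of 8 genes with 4 or more probes, the brightest probe of each as a diamond at the left. Red symbols passed both thresholds: 3 probes each of actb1, arpc5a and tpm3, while arpc5a and tpm3 each have 1 probe below 0, and that of tpm3 was well above background on 1 array only. Of all probes on the array 1.89% rose.

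The GTPases Rac and Cdc42 set where filaments form, and none of their measured genes passed. Rac drives lamellipodia. Its gene rac1a averaged 12.79 ± 0.11 in crush pools and 12.27 ± 0.18 in control pools, a difference of 0.52 that missed both thresholds (adjusted p = 0.0601). The 3 probes of rac1a were 0.22 to 0.52 higher after crush, with a median of 0.24, and 0 passed. The largest difference among the Rac and Cdc42 genes, 0.71 ± 0.19, was that of rac2, the Rac of blood cells in mammals (adjusted p = 0.0885). It read 8.48, 8.77, 8.61 and 9.29 in crush pools 1 to 4, against 8.33, 7.94, 7.87 and 8.18 in control pools 1 to 4, so that crush pool 4 was the highest. Crush pool 4 was also the highest pool for the myeloid markers mpeg1.1 (10.41, against 9.43 to 9.76 in the other crush pools and 9.11 to 9.40 in control pools) and spi1b (9.89). Of the 11 myeloid markers measured, 7 were higher after crush, with a median difference of 0.28, and 0 passed. Crush pool 4 held the highest value of 7 of these markers and control pool 1 that of the other 4. Their part in the rac2 values was not tested. For cdc42, the regulator of filopodia, the difference was 0.03 ± 0.11 (adjusted p = 0.905), and for its relative cdc42l it was 0.35 ± 0.11 (adjusted p = 0.125). The others were rac1b (0.35), cdc42l2 (0.17) and rac3a (−0.20), all with overlapping groups. The 2 probes of rac3a differed in sign (−0.20 and 0.05).

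Of 8 genes for proteins that bind active Cdc42, 4 were higher after crush, where 51.4% of all genes were. None passed, where 2.47% of all genes rose and 0.883% fell. The kinase gene cdc42bpb, the brightest, read 9.11, 9.11, 9.13 and 8.91 in crush pools 1 to 4, against 9.06, 9.20, 9.20 and 9.46 in control pools 1 to 4. The groups overlapped and the difference was −0.17 ± 0.12 (adjusted p = 0.470). The septin regulator cdc42ep5 had all 5 probes higher, by 0.45 to 0.75 (47.9% of all probes were higher). None passed (adjusted p = 0.224 at the brightest). The rest ran from −0.49 in cdc42se2 over −0.37 in the kinase gene cdc42bpab, which was below all control pools in every crush pool, and −0.25 in cdc42ep3 to 0.02 in cdc42se1 and 0.42 in cdc42ep4a. The probes of cdc42ep4a differed in sign, with the second at −0.50 (adjusted p = 0.281).

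Of the 59 genes 57 were well above background on all 8 arrays. The exceptions were cdc42ep2, seen on 1 crush and 2 control arrays, and tpm4b, on 3 crush and 2 control arrays, with differences of 0.07 and 0.20. Among the 45 genes with several probes, 36 had all probes on the same side of 0. Only 10 members had 4 or more probes, and the same count was not made over all genes. Counting a gene when any probe passed gave 6 members, with actb1 and tpm3 added to the 4 (3.02% of all genes rose by that count). By that count 0 members fell (1.19% of all genes). A count by any probe favours genes with more probes, and the members had more per gene. They had 156 probes for 59 genes, against 25598 for 13142 genes with a symbol.

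Other actin regulators, outside the naming rule, were read from a list of 202 genes of which 122 were measured: further cappers and monomer binders, nucleators, crosslinkers, GTPases with their regulators, and non-muscle myosins. In this list 5 genes rose (4.10%, against 2.47% of all genes) and 1 fell (0.820%, against 0.883%). The mean was higher after crush for 58 (47.5%, against 51.4% of all genes), with a median of −0.02, and 15 were higher and 7 lower without overlap (12.3% and 5.74%, against 10.3% and 6.53% of all genes). Of the 5, capgb, twf1a and wdr1 act on filament ends and subunits. The gelsolin relative capgb, a barbed-end capper, read 8.20, 8.42, 8.24 and 8.25 in crush pools 1 to 4, against 7.19, 7.11, 7.37 and 7.48 in control pools 1 to 4, and rose by 0.99 ± 0.12 (adjusted p = 0.00400). Twinfilin gene twf1a, whose product binds subunits and barbed ends, averaged 12.03 ± 0.06 in crush pools and 11.30 ± 0.20 in control pools (0.74, adjusted p = 0.0173). The cofilin cofactor wdr1 averaged 12.95 ± 0.18 in crush pools and 12.23 ± 0.19 in control pools (0.72, adjusted p = 0.0293). The other risers were zyx, encoding the focal adhesion protein zyxin (9.32 ± 0.31 in crush pools, 8.51 ± 0.17 in control pools, adjusted p = 0.0413), and pls3, encoding the bundler plastin 3 (8.58 ± 0.16 in crush pools, 7.79 ± 0.28 in control pools, adjusted p = 0.0359). With single pools left out, capgb passed in all 8 sets of arrays, twf1a in 4, wdr1 and pls3 in 2 each, and zyx in 1.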

How the data were processed

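Retinal RNA pools were compared between crush and control fish on 1-colour Agilent arrays. The deposited scanner files hold the median fluorescence intensity of each spot and of its local background (Feature Extraction 10.7.3.1), not normalised. The authors also deposited log2 values, which equalled normexp correction at an offset of 16 with quantile normalisation over all 45220 spots. The plan named the scanner intensities without choosing between mean and median signal, and the median was taken. Intensities were corrected with normexp (offset 0) in limma 3.58.1 under R 4.3.3, leaving out control spots, setting outlier-marked spots (6 to 382 per array) to missing, after which arrays were quantile normalised and spots of a probe averaged on the log2 scale. Probes with at least 2 values per group went into lmFit and eBayes, with two-sided p-values and no covariates, and adjusted by Benjamini-Hochberg over 43601 probes. No filter on low signals was applied. Between 76.6% and 77.8% of spots were well above background on crush arrays and between 72.5% and 84.0% on control arrays, with 0 saturated. The number of arrays limits the precision.

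Symbols came from RefSeq accessions through a table of assembly GRCz12tu (25598 of 43603 probes, 58.7%), and its coordinates were not used. Related genes were compared by exact permutation over 70 relabellings of 4 against 4 pools. Of 22 pairs listed, 16 were measured. Alternatives covered the offset, scaling, signal, outliers, dim probes, replicate block, probe choice and each pool left out. The probe counts of actb1, arpc5a and tpm3 under these settings were added after seeing the data. Pool values are given for each called member, actb1, actb2 and the brightest gene of each role, and of the other regulators for those past both thresholds, with other genes chosen after their values were seen. One item, with the genes closest to it, is not reported here and is left out of the figures. The members and lists were chosen with earlier results of these data known. The fit was tested on simulated data, and Python 3.11.15 drew the figures.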

Additional observations from a re-analysis of the deposited data

Results flagged for a closer look

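Of 118 groups of 4 pools checked, 4 held a pool whose gap to its nearest neighbour exceeded Dixon's critical share of the group's range for 4 samples, where chance gives about 1 group in 20. For waslb, crush pool 1 read 13.90 and the other crush pools 13.18 to 13.28 (gap 0.863 of the range), and the difference was −0.34 with that pool and −0.51 without it. For cdc42bpb, crush pool 4 read 8.91 and the others 9.11 to 9.13 (0.935), with differences of −0.17 with and −0.12 without it. For tpm4a, control pool 2 read 10.52 and the other control pools 9.42 to 9.57 (0.866), with differences of −0.40 with and −0.15 without it. For cdc42ep5, control pool 3 read 7.80 and the highest of the others 9.08 (0.939). Its difference between the groups, 0.75 and uncalled, was 0.44 without that pool.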

How the results depend on the processing

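The 4 calls among the members were the same genes at offsets of 16 and 50, with the authors' log2 values, with outlier spots kept and with dim probes left out. The processed signal gave 5 (actb1 added) and the mean of a gene's probes 3 (without actr3). Median scaling gave 8 (actb1, tpm3, rac1a and rac2 added), and leaving out single pools gave 2 to 4. In each of these settings 0 members fell. Same-numbered pools did not pair (correlation of their deviations 0.01, −0.12, 0.02 and 0.18), and the replicate block left 2 members (tmsb and cfl1l), 1 other regulator that rose and 0 that fell, and 368 probes that rose and 128 that fell.

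Other regulators that rose numbered 9 with median scaling, 3 with the processed signal and 1 to 5 with single pools left out. Those that fell numbered 0 at either offset, with the authors' values or with the mean of probes, 3 with the processed signal, and 0 or 1 with single pools left out. Probes that fell numbered 210 at an offset of 50, 1204 with median scaling and 866 with the processed signal. With single pools left out, 356 to 1033 probes rose, 122 to 500 fell and 2 to 4 related pairs did not overlap. Of 496 values of 31 named genes, 431 stayed on their side of the thresholds, 56 lost and 5 gained a call, and 4 changed sign, all uncalled: capza1b (−0.00683 to 0.10 with single pools left out) and actr3b (−0.10 to 0.11). The cause of these changes was not tested. The sizes of differences in genes near background are limited by signal.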
